A study of Mus musculus with 4 samples.

Results

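Imprinted genes are transcribed from a single parental copy, and 10 such loci of the mouse were examined in bisulfite sequencing of T cells: Peg3, Snrpn, Mest, Plagl1, Peg10, Inpp5f, Impact, Kcnq1ot1, Igf2r and H19. A locus was taken as the RefSeq bounds of the gene in mm10 with 5 kb on each side, and all 10 genes were found. They held 9633 of the 25374149 cytosine positions in the deposited table, and 1916 of these had at least 5 reads in every library. Snrpn alone, whose annotated bounds run over 468 kb, held 1076 of the 1916 positions. In total 48252 genes of the RefSeq table held such a shared position.

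The libraries came from CD4+ T cells of the spleen of NOD mice, a strain in which autoimmune diabetes arises without treatment, and all mice were 10 weeks old. OX40L-JAG1 mice had been given the proteins OX40L, the ligand of the T cell receptor OX40, and Jagged-1, a ligand of Notch receptors, in 3 weekly doses begun at 6 weeks. PBS mice had been given the saline vehicle on the same plan. Regulatory T cells (Treg) were sorted as CD4+CD25hi cells and effector T cells (Teff) as CD4+CD25- cells, which makes 4 groups: OX40L-JAG1 Treg, OX40L-JAG1 Teff, PBS Treg and PBS Teff. Each group was 1 library, the labels do not state how many animals it came from, and CD25 is a surface marker that activated Teff can also carry. Every test below therefore compares libraries and not conditions, and intervals are 95% intervals that cover counting error only, since neighbouring positions often lie on the same reads.

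An imprint is a methylation mark that 1 germline places on its copy of a locus and that body cells then keep through division. Where the copy from 1 parent is methylated and the other is not, sequencing of a cell population reads near 50% over a stretch of neighbouring CpGs, the differentially methylated region. The marked copy is the maternal one at Peg3, Snrpn, Mest, Plagl1, Peg10, Inpp5f, Impact, Kcnq1ot1 and the Airn promoter inside Igf2r, and the paternal one at H19. Bisulfite counts alone do not name the parent, and NOD is an inbred strain, so its parental copies cannot be told apart by sequence.

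The promoters on which the results turn are printed first, with each CpG in capitals, since these are the cytosines the levels refer to. They are RefSeq sequences of GRCm38.p6, 250 bases before to 50 bases after an annotated start, written 5′ to 3′ on the strand of the gene. Snrpn lies at chr7:60005150-60005449 (minus strand), Kcnq1ot1 at chr7:143296498-143296797 (minus), Mest at chr6:30737803-30738102 (plus), Peg3 at chr7:6730370-6730669 (minus) and Inpp5f at chr7:128611115-128611414 (plus).
Snrpn: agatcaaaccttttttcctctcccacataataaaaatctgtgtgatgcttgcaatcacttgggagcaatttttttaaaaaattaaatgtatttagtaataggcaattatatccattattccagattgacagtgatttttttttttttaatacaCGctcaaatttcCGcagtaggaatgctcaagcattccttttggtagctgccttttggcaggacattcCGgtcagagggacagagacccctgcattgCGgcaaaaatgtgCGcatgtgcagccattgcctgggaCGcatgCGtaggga
Kcnq1ot1: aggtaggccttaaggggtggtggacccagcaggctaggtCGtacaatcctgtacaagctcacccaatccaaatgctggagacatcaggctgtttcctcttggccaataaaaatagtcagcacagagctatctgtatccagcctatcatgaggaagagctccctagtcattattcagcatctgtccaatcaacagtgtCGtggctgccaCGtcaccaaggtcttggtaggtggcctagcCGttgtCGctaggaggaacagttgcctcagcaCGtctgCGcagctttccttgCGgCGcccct
Mest: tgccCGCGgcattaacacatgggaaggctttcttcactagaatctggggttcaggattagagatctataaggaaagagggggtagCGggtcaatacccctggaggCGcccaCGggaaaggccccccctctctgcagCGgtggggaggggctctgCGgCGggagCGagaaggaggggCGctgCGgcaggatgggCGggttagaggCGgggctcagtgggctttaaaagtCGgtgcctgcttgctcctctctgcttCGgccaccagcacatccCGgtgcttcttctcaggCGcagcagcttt
Peg3: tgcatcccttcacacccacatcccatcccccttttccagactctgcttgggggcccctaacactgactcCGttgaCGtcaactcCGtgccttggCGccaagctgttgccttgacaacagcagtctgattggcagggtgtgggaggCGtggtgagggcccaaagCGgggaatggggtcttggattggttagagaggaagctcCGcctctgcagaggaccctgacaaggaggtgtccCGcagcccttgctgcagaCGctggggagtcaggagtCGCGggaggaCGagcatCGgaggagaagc
Inpp5f: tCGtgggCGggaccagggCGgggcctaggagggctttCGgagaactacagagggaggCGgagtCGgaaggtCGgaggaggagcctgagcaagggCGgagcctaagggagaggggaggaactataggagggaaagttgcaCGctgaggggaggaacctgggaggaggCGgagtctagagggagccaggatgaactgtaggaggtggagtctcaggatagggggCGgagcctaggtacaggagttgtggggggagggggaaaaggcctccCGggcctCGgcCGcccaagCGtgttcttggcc
The first 3 lie in stretches near 50%, the Peg3 promoter lies beside such a stretch, and the Inpp5f promoter was unmethylated.

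The printed Snrpn promoter holds 7 CpGs, and PBS Teff had 56.9% methylated reads over 11 positions and 65 reads there. Its positions ran from 40 to 66.7%, so no listed position was fully methylated or unmethylated. The Kcnq1ot1 promoter, with 9 CpGs, stood at 53.3% of 15 reads in PBS Treg and at 39.3% of 61 reads in PBS Teff. At Mest, with 17 CpGs, 80% of 10 reads were methylated in OX40L-JAG1 Teff and 43.2% of 44 reads in PBS Teff. The Inpp5f promoter, with 15 CpGs, had 0 methylated of 21 reads in OX40L-JAG1 Treg, 0 of 82 in OX40L-JAG1 Teff, 0 of 66 in PBS Treg and 2.08% of 48 reads in PBS Teff. It is the promoter of the long Inpp5f transcript, whereas the imprinted transcript starts inside the gene. TGCCGC, the hexamer bound by the imprint-protecting zinc finger protein ZFP57, was searched on both strands. It occurs once in the Snrpn promoter, in 2 places at Mest, once at Plagl1, and in 11.6% of the 32851 promoters of the same length. No match was found in the printed Kcnq1ot1, Peg3 and Inpp5f windows, nor in that of Igf2r, and 7 of the 10 members had a promoter sequence.

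Depth set what could be seen. Listed positions of the 10 loci numbered 3583 in OX40L-JAG1 Treg, 5580 in OX40L-JAG1 Teff, 4792 in PBS Treg and 6904 in PBS Teff, and the median listed position of the whole table had 6 to 7 reads in each library. Every nonzero count in the table is at least 5. Pooled over the positions shared by all libraries genome-wide, methylation differed by -3.58 points between OX40L-JAG1 Teff and PBS Teff and by -2.74 points between OX40L-JAG1 Treg and PBS Treg. The separation of Treg from Teff was checked on marker genes. All 5 Treg markers, among them Foxp3, had a 1-kb window called lower in Treg under both treatments. All 5 conventional T cell markers had one called higher. None of 8 B cell and 8 CD8 T and NK cell markers had one, but these held only 78 and 19 tested windows. Treg less Teff called 0.279% of all windows with PBS and 0.114% with OX40L-JAG1, so their lack of calls says little. Of 8 myeloid genes, 6 had a tested window, and Spi1 alone was called, higher in Treg under both treatments. Other cell types present alike in Treg and Teff would not show in this comparison, so contamination of the sorts was not tested.

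Near-50% stretches, each of 1 or more neighbouring 1-kb windows at 35 to 65% in PBS Teff, were found in all 10 loci. Such a window was also found in 55 of 64 other imprinted genes and 15 of 17 regulators of imprints. Among the marker genes it was 5 of 5 for Treg, 5 of 5 for conventional T cells and 6 of 8 for B cells. It was 7 of 8 for myeloid cells and 8 of 8 for CD8 T and NK cells. Holding a stretch therefore does not set the loci apart. Of 612 member windows of 1 kb with at least 5 listed positions in PBS Teff, the deepest library, 56 stood at 35 to 65%, or 9.15%, against 6.76% of such windows in the whole table. They form 41 stretches, 17 of them in Snrpn. PBS Teff chose these windows, so its level there is a description, and the other libraries are the ones the choice did not use. Of the 56 windows, 28 could be read in OX40L-JAG1 Treg and 19 of those were also at 35 to 65%. In OX40L-JAG1 Teff it was 32 of 46, and in PBS Treg 27 of 43. These shares, 67.9%, 69.6% and 62.8%, stood beside 61.1%, 64.9% and 58.4% for all such windows of the table. The member windows nearest to the limits were at 36.1% and 65% inside and at 34.5% and 65.7% outside.

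Windows with at least 30 listed cytosines in the table, called CpG-dense here, were then set beside the genome. A cytosine is listed only with at least 5 reads in some library, so the label follows depth as well as CpG number. The Plagl1 and Igf2r promoters, with 26 and 34 CpGs, had no listed cytosine. Of 32 CpG-dense member windows, 15 were at 35 to 65% in PBS Teff (46.9%), against 8.14% of 41351 on the autosomes. Only 2 member windows (6.25%) were under 20%, against 27.5%. The 15 windows lie in 9 of the loci. Impact, whose stretch windows list fewer cytosines, has none. At Snrpn they are 60243001 to 60244000 and 60391001 to 60392000. The Snrpn promoter window (60005001 to 60006000), with 22 listed cytosines, is not among them. At Inpp5f it is 128612001 to 128613000, and the stretch at 128688001 to 128689000, with 17 listed cytosines, is not among them. In PBS Treg 13 of the 15 were also at 35 to 65% (86.7%), beside 49.5% for the autosomal windows chosen the same way, and the values were 9 of 13 (69.2% beside 53.5%) in OX40L-JAG1 Teff and 5 of 8 (62.5% beside 48.5%) in OX40L-JAG1 Treg. The 10 loci are a chosen list, so these shares carry no test.

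A level near 50% can come from CpGs that are each methylated on part of the molecules, or from a mixture of fully methylated and unmethylated CpGs. In the CpG-dense windows of the loci most positions were themselves at intermediate levels. Of the 15 windows, 8 had at least 5 listed positions in OX40L-JAG1 Treg, 13 in OX40L-JAG1 Teff and all 15 in each PBS library. In these, 81.3% of the positions in OX40L-JAG1 Treg, 85.8% in OX40L-JAG1 Teff, 89.3% in PBS Treg and 90.9% in PBS Teff lay at 20 to 80%. In all CpG-dense autosomal windows at 35 to 65% in PBS Teff the shares were 42.5%, 40.7%, 39.6% and 42.4% in the same order of libraries. Near-50% member windows with fewer listed cytosines were in between, with 61.3% in OX40L-JAG1 Treg, 59.4% in OX40L-JAG1 Teff, 55.3% in PBS Treg and 64.2% in PBS Teff. The 15 windows are not all alike. That of Inpp5f at chromosome 7, 128612001 to 128613000, was mixed, with 4 of 10 positions at 20 to 80% and 6 at 0 in OX40L-JAG1 Treg, and 3 of 10 at 20 to 80% and 5 at 100% in OX40L-JAG1 Teff. Reads per position were 8.99 to 10.8 in the 15 windows and 8.19 to 8.77 in the autosomal ones, but a single deep window of Snrpn (60243001 to 60244000) carries much of that depth. Without it, a check chosen after seeing the data, the loci had 6.20 to 6.90 reads per position, fewer than the autosomal windows. The shares at 20 to 80% were then 81.2% in OX40L-JAG1 Treg, 85% in OX40L-JAG1 Teff, 90.3% in PBS Treg and 90.4% in PBS Teff.

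**Figure D1:**
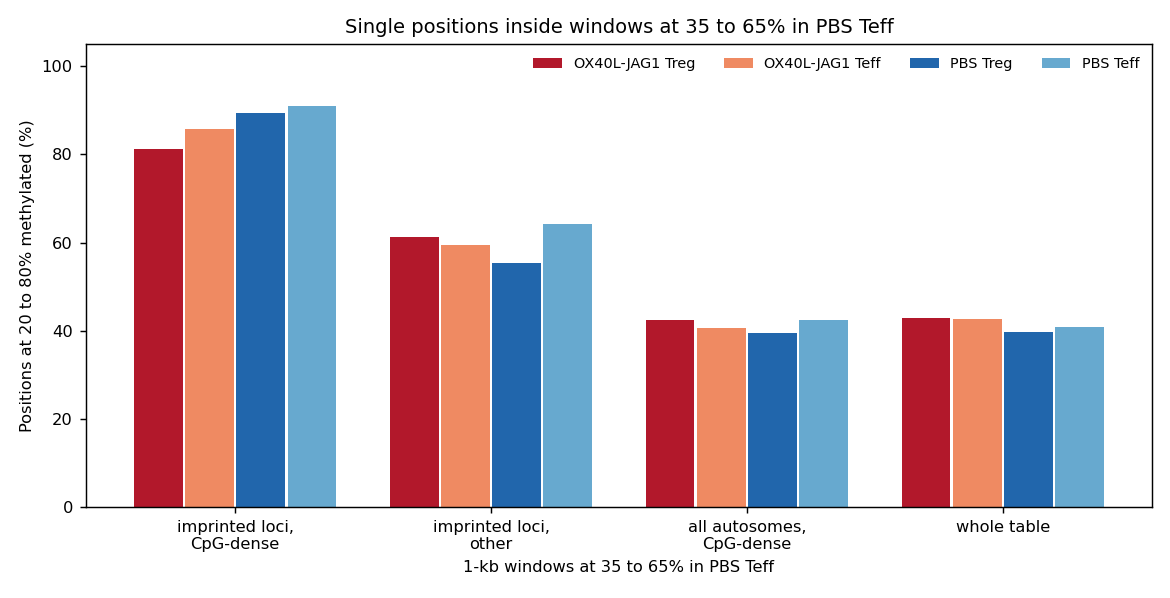
Share of single cytosine positions at 20 to 80% methylated (vertical axis, percent) inside 1-kb windows that stood at 35 to 65% in PBS Teff, by library (bars). Each bar covers the windows with at least 5 listed positions in that library. In CpG-dense windows of the imprinted loci the bars reach 81.3 to 90.9%, and in all CpG-dense autosomal windows 39.6 to 42.5%.

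For each locus 1 stretch is described as its main one, the one at the known control region or, failing that, with the most positions. These were picked with the values in view. PBS Teff read all 10 of them, at 44.2 to 64.5% with a median of 51.7%, and 421 of its 451 positions there lay at 20 to 80%. PBS Treg read 8 of them with at least 5 positions, at 44.7 to 61.2% with a median of 51.3%. OX40L-JAG1 Teff read 7, at 35.4 to 67.8% with a median of 57.8%, and OX40L-JAG1 Treg read 5, at 42.4 to 59.6% with a median of 44.0%. Outside Impact in OX40L-JAG1 Teff, every one of these readings lay at 35 to 65%, a result that depends on the choice. At Peg3 the chosen stretch had more positions than the other in PBS Teff (29 against 14) but fewer in the other libraries. The Peg3 stretch left out (6731001 to 6732000) read 74.0% in OX40L-JAG1 Teff, 61.4% in OX40L-JAG1 Treg and 62.7% in PBS Treg. Each library was read at its own positions, so these levels do not compare libraries. At positions both libraries listed, PBS Treg less PBS Teff was 24.7 points (10.4 to 36.8) at Impact and -28.4 (-44.2 to -10.2) at Plagl1. The intervals of Mest, Peg10, Kcnq1ot1, Igf2r and H19 included 0. OX40L-JAG1 Treg less PBS Treg was -43.9 points (-62.5 to -17.8) at Impact and -6.97 (-20.6 to 6.97) at Kcnq1ot1.

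**Figure D2:**
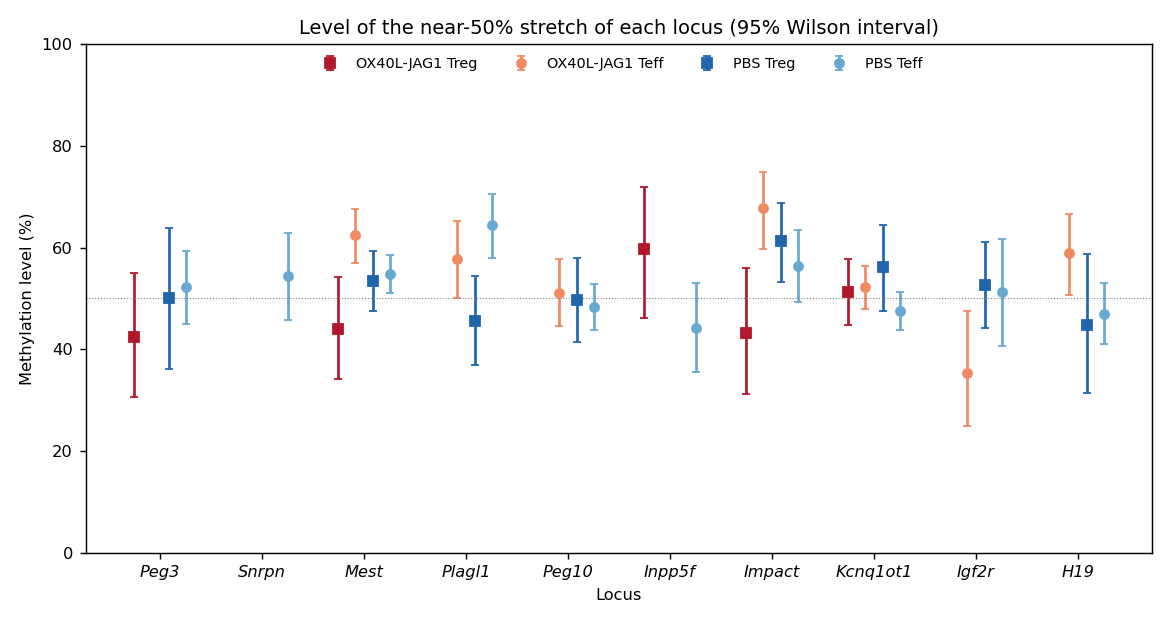
Methylation level of the main near-50% stretch of each locus (vertical axis, percent) by library. The 95% Wilson intervals treat counts at neighbouring positions as independent, and libraries with under 5 positions are left out. Points lie from 35.4% to 67.8%, and Mest, Impact and Kcnq1ot1 have a reading in all 4 libraries, at 43.1 to 67.8%.

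Mest and Peg10, both expressed from the paternal copy, had stretches of the same length. Mest encodes a protein of the alpha/beta hydrolase fold, and its stretch covers 4 kb (chromosome 6, 30735001 to 30739000) with the start of its main transcripts. OX40L-JAG1 Treg read 44.0% of 91 reads at 17 positions, OX40L-JAG1 Teff 62.4% of 322 reads at 55, PBS Treg 53.5% of 275 reads at 46 and PBS Teff 54.8% of 688 reads at 102. At 20 to 80% lay 17 of 17 positions in OX40L-JAG1 Treg, 52 of 55 in OX40L-JAG1 Teff, 44 of 46 in PBS Treg and 97 of 102 in PBS Teff. Outside its stretches the Mest locus was at 84.8 to 91.1% in the 4 libraries.

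Peg10, a gene derived from a retrotransposon, had a stretch of 4 kb (chromosome 6, 4746001 to 4750000) that reaches over the neighbouring end of Sgce. OX40L-JAG1 Teff read 51.1% of 221 reads, PBS Treg 49.6% of 139 and PBS Teff 48.3% of 466, so these libraries lay within 3 points of each other. OX40L-JAG1 Treg had only 1 listed position there. Of the positions, 39 of 41 in OX40L-JAG1 Teff, 19 of 23 in PBS Treg and 75 of 81 in PBS Teff were at 20 to 80%.

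Plagl1, a zinc finger transcription factor, showed both kinds of window within 5 kb. The CpG-dense window inside Plagl1 and Hymai (chromosome 10, 13091001 to 13092000) read 73.3% of 15 reads in OX40L-JAG1 Treg, 57.8% of 161 in OX40L-JAG1 Teff, 45.5% of 123 in PBS Treg and 64.5% of 214 in PBS Teff. Single positions lay at 20 to 80% in 24 of 25 cases in OX40L-JAG1 Teff, 23 of 23 in PBS Treg and 28 of 36 in PBS Teff. The other window (13087001 to 13088000), before the gene, read 42.5% in OX40L-JAG1 Treg, 45.1% in OX40L-JAG1 Teff, 29.1% in PBS Treg and 36.1% in PBS Teff. There the average hid extremes, since 2 of 18, 2 of 11, 1 of 9 and 3 of 19 positions lay at 20 to 80% in these libraries, and in PBS Teff 9 positions were at 0 and 5 at 100%.

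At Peg3, which encodes a zinc finger protein, 2 windows near 50% flank the promoter. The window inside the gene (chromosome 7, 6729001 to 6730000) read 42.4% of 59 reads in OX40L-JAG1 Treg, 50% of 46 in PBS Treg and 52.2% of 182 in PBS Teff, and OX40L-JAG1 Teff had no listed position. At 20 to 80% lay 11 of 11 positions in OX40L-JAG1 Treg, 6 of 9 in PBS Treg, where the other 3 were at 100%, and 29 of 29 in PBS Teff. The window beyond the promoter (6731001 to 6732000), in Usp29, read 61.4% in OX40L-JAG1 Treg, 74.0% in OX40L-JAG1 Teff, 62.7% in PBS Treg and 50% in PBS Teff. There 12 of 16, 11 of 20, 28 of 30 and 14 of 14 positions lay at 20 to 80% in these libraries.

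Snrpn encodes a protein of the splicing machinery and shares its promoter with Snurf, the site of the imprinting centre of the Prader-Willi and Angelman region. The promoter window (chromosome 7, 60005001 to 60006000) was read in PBS Teff only, where it stood at 54.4% of 125 reads with all 22 positions at 20 to 80%. OX40L-JAG1 Treg listed 0 positions, OX40L-JAG1 Teff 1 and PBS Treg 2, so no comparison can be made at the Snrpn imprinting centre. The window 2 kb on (60007001 to 60008000) was read in all libraries, at 56.8% in OX40L-JAG1 Treg, 57.8% in OX40L-JAG1 Teff, 60.4% in PBS Treg and 62.9% in PBS Teff.

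Most near-50% windows of the Snrpn bounds lie far from that promoter, in the long upstream part shared with Snhg14. The one with the most reads lies at 60243001 to 60244000. Over its 16 shared positions OX40L-JAG1 Treg read 34.2% of 707 reads and OX40L-JAG1 Teff 37.9% of 694. PBS Treg read 33.9% of 750 reads there and PBS Teff 36.5% of 1119. These are 43.4 to 69.9 reads per position, against a median of 9 to 14 reads per shared position genome-wide. Other Snrpn windows were deep as well. Reads per listed position ran from 33 to 56.4 over the libraries at 60315001 and from 40 to 54 at 60428001. At 60007001, the window 2 kb from the promoter window, they ran from 11.4 to 31.25. Whether reads of several genomic copies were placed in any of these windows was not tested. In PBS Teff 34 of the 35 listed positions at 60243001 to 60244000 were at 20 to 80%, whereas in the stretch at 60373001 to 60375000 it was 3 of 15.

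Inpp5f and Impact carry their stretch inside the gene. Inpp5f encodes a phosphoinositide phosphatase, and its stretch at chromosome 7, 128688001 to 128689000 read 59.6% of 52 reads in OX40L-JAG1 Treg, 61.9% of 21 in OX40L-JAG1 Teff, 66.7% of 6 in PBS Treg and 44.2% of 120 in PBS Teff. In OX40L-JAG1 Treg 9 of 9 positions and in PBS Teff 13 of 15 were at 20 to 80%. Other Inpp5f windows near 50% were mixed, such as 128610001 to 128611000, with 3 of 14 positions at 20 to 80% in PBS Teff. The CpG-dense window at 128612001 to 128613000 read 20.7% of 58 reads in OX40L-JAG1 Treg, 78.3% of 60 in OX40L-JAG1 Teff, 60.5% of 43 in PBS Treg and 50% of 116 in PBS Teff, where 11 of 18 positions were at 20 to 80%. Impact, a regulator of the translational stress kinase GCN2, read 43.1% of 58 reads in OX40L-JAG1 Treg, 67.8% of 143 in OX40L-JAG1 Teff, 61.2% of 147 in PBS Treg and 56.5% of 186 in PBS Teff at chromosome 18, 12972001 to 12975000. At 20 to 80% lay 10 of 11 of its positions in OX40L-JAG1 Treg, 18 of 24 in OX40L-JAG1 Teff, 16 of 25 in PBS Treg, with 2 at 0 and 5 at 100%, and 19 of 21 in PBS Teff. The 2 other Impact windows near 50% were mixed, with 4 of 15 and 2 of 8 positions at 20 to 80% in PBS Teff.

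Kcnq1ot1 is a long noncoding RNA that silences neighbouring genes in cis, and its start lies in an intron of Kcnq1. Its stretch (chromosome 7, 143295001 to 143297000) had the most reads of the main stretches over the 4 libraries. OX40L-JAG1 Treg read 51.3% of 224 reads at 38 positions, OX40L-JAG1 Teff 52.2% of 554 reads at 73, PBS Treg 56.2% of 130 reads at 20 and PBS Teff 47.5% of 673 reads at 84. The median position was at 53.6% in OX40L-JAG1 Treg, 50% in OX40L-JAG1 Teff, 60% in PBS Treg and 50% in PBS Teff. Of the positions, 38 of 38, 71 of 73, 19 of 20 and 79 of 84 lay at 20 to 80% in these libraries. The Wilson intervals of the 4 libraries overlap, from 44.8 to 57.8% in OX40L-JAG1 Treg, 48.0 to 56.3% in OX40L-JAG1 Teff, 47.6 to 64.4% in PBS Treg and 43.8 to 51.3% in PBS Teff. Between its stretch and the rest of the locus, at 88.2 to 91.8%, levels climbed within a few windows on either side.

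**Figure D3:**
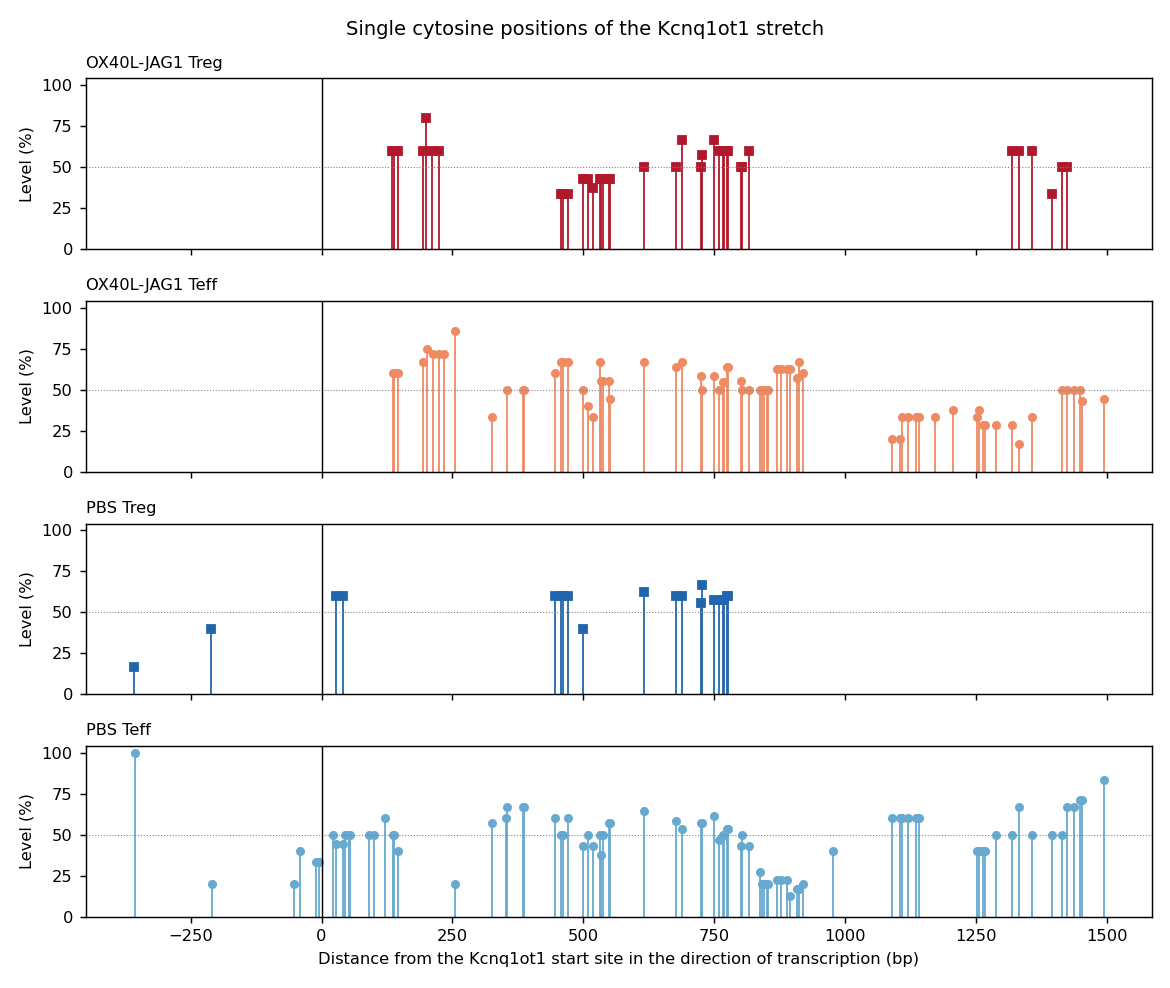
Methylation level of single cytosine positions (vertical axis, percent) by distance from the Kcnq1ot1 start site (horizontal axis, bases, direction of transcription), 1 panel per library, for positions with at least 5 reads. Nearly all positions lie at 20 to 80%; neighbouring CpGs often share reads.

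Igf2r, the receptor that clears IGF2, is expressed from the maternal copy and is silenced on the other by the noncoding RNA Airn. Its window near the Airn start (chromosome 17, 12742001 to 12743000) read 40% of 20 reads in OX40L-JAG1 Treg, 35.4% of 65 in OX40L-JAG1 Teff, 52.7% of 131 in PBS Treg and 51.2% of 82 in PBS Teff. In PBS Treg 20 of 21 positions and in PBS Teff 14 of 16 were at 20 to 80%. The window around the Igf2r start (12769001 to 12770000) has no listed position inside the RefSeq promoter (12769657 to 12769956), so its levels come from the bases beside it. It read 36.1% of 119 reads in OX40L-JAG1 Treg, with 22 of 22 positions at 20 to 80%, and 61.2% of 80 reads in PBS Teff, with 16 of 16. OX40L-JAG1 Teff had 1 listed position there and PBS Treg none.

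H19, a noncoding RNA expressed from the maternal copy, is governed by a control region that lies before the gene and binds the insulator protein CTCF on the unmethylated copy. The stretch at chromosome 7, 142580001 to 142582000, beyond the higher end of the gene at 142578146, is in that place. OX40L-JAG1 Treg read 60.9% of 23 reads, OX40L-JAG1 Teff 58.9% of 141, PBS Treg 44.7% of 47 and PBS Teff 46.9% of 260. All 45 positions of PBS Teff and 23 of 26 of OX40L-JAG1 Teff lay at 20 to 80%.

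**Figure D4:**
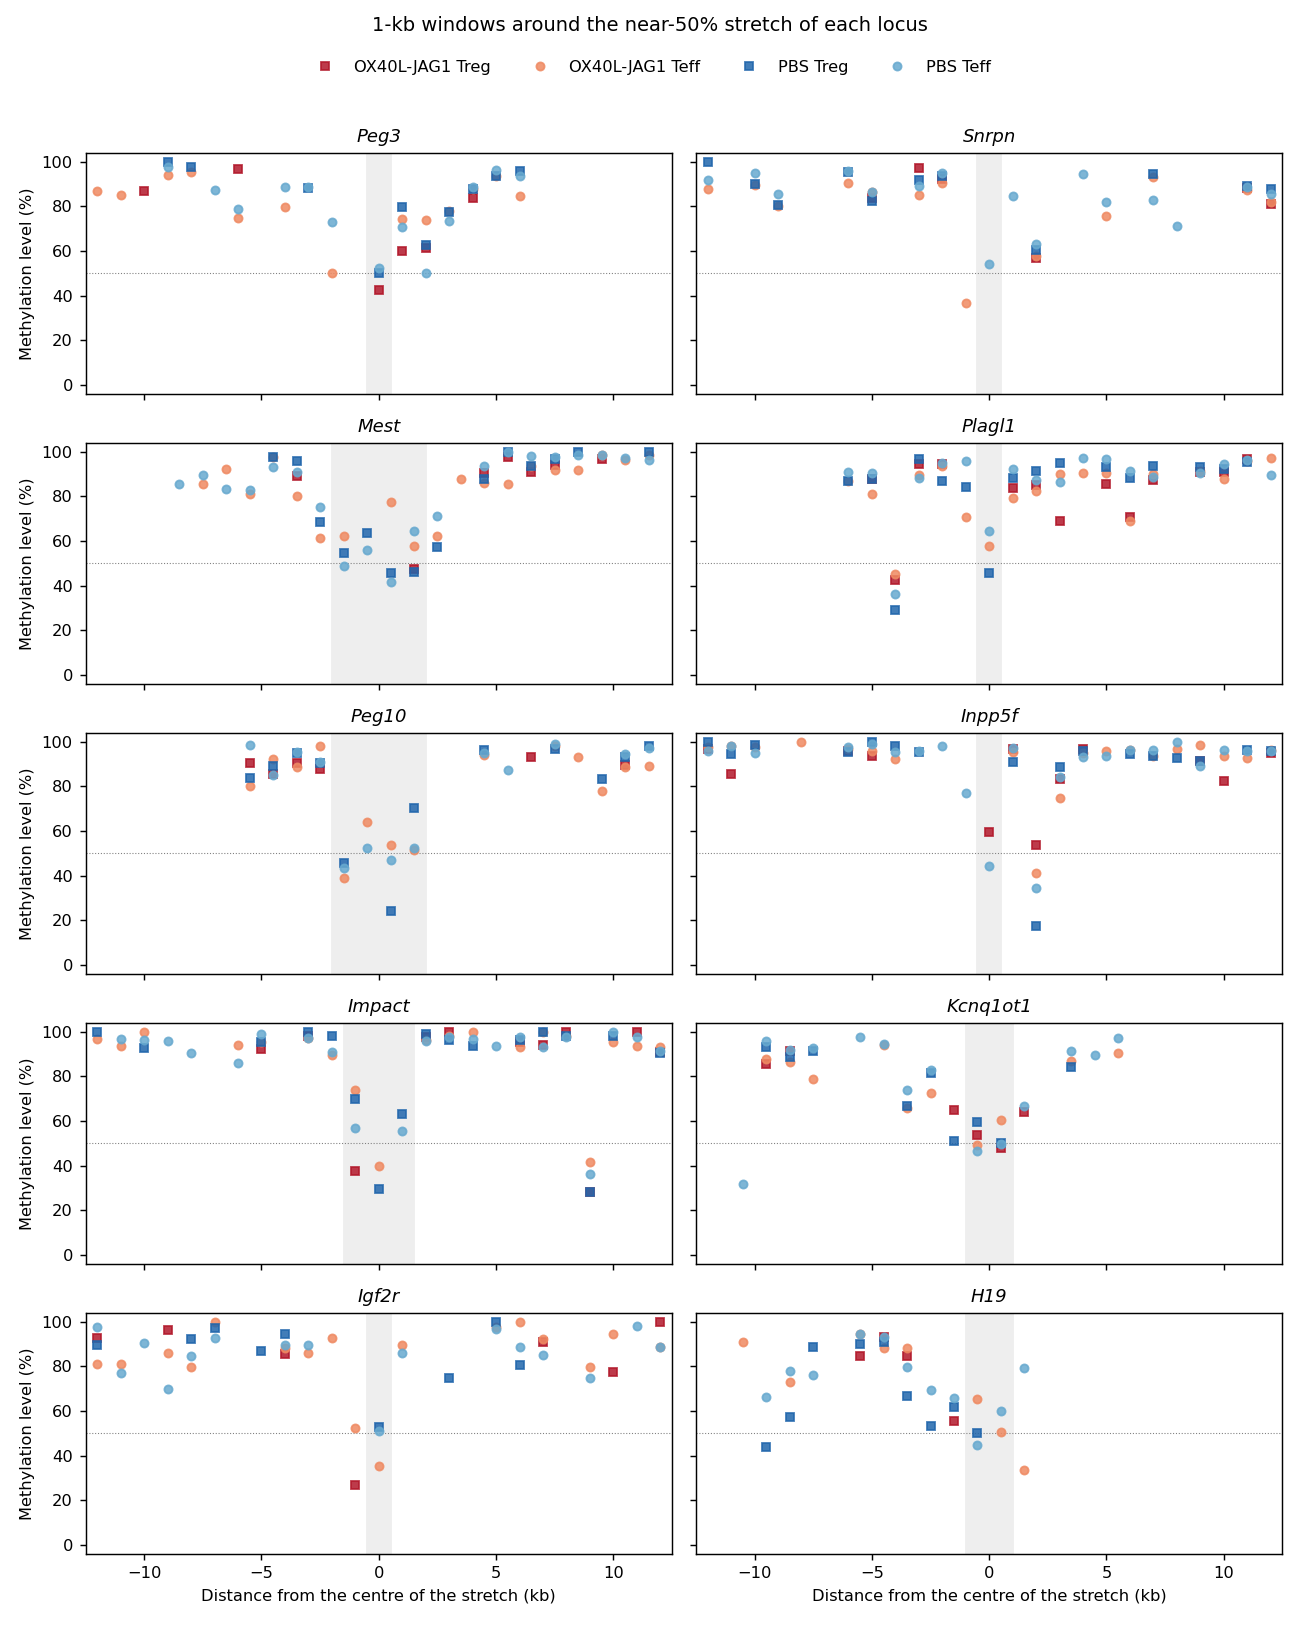
Methylation level of 1-kb windows (vertical axis, percent) by distance from the centre of the main near-50% stretch of each locus (horizontal axis, kb), for windows with at least 5 listed positions in a library; grey marks the stretch, whose choice used PBS Teff. Levels dip at the grey band in each locus and mostly rise several kb away. Pooled over the locus outside its stretches, H19 read 69.1 to 85.4%, Snrpn 74.8 to 80.1% and Peg10 78.3 to 83.3% over the libraries. The other loci were above 80% there in every library.

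The same windows were then compared between libraries. A window counted as called at a Benjamini-Hochberg adjusted p under 0.05 over all windows of the genome by the two-sided Fisher's exact test, with a difference of at least 20 points. Of 115 member windows with at least 5 positions shared by all libraries, 1 was called between PBS Treg and PBS Teff, where 0.279% of the 314517 windows of the genome were called. None was called between OX40L-JAG1 Treg and OX40L-JAG1 Teff (0.114% genome-wide) or between OX40L-JAG1 Teff and PBS Teff (0.559%), with 10 and 13 member windows at an unadjusted p under 0.05 (8.7% and 11.3%, against 5.3% and 15.9% of all windows). Between OX40L-JAG1 Treg and PBS Treg 2 were called (0.101%), and the test of the interaction called 1 (0.0108%). Over so few windows these counts are too small to set the loci apart from the genome. The median difference of the 115 windows was 0.79 points for Treg less Teff in the OX40L-JAG1 pair and 0 in the PBS pair. For OX40L-JAG1 less PBS it was -2.63 points in Teff and -1.42 in Treg, beside -2.82 and -2.14 over all windows.

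At Peg3 the called window is the one that holds the promoter (chromosome 7, 6730001 to 6731000). It was 60% methylated in OX40L-JAG1 Treg (170 reads), 74.4% in OX40L-JAG1 Teff (324), 82.6% in PBS Treg (253) and 70.8% in PBS Teff (250), over 14 shared positions. Over these positions OX40L-JAG1 Treg was the lowest library and PBS Treg the highest. Positions 6730416, 6730434 and 6730468 of the window were listed in the PBS libraries only, on 5 to 6 reads each. There PBS Treg was the lower, at 20, 40 and 20%, and PBS Teff stood at 80, 66.7 and 60%. The difference between OX40L-JAG1 Treg and PBS Treg was -22.6 points (interval -31.2 to -13.9), significant by Fisher's exact test (adjusted p = 0.000935), and 13 of 14 positions were lower in OX40L-JAG1 Treg. Single positions had medians of 59.1% in OX40L-JAG1 Treg, 76.1% in OX40L-JAG1 Teff, 85.4% in PBS Treg and 71.1% in PBS Teff. The treatment difference in Treg less that in Teff was -26.2 points, with an adjusted p of 0.0437 by the Wald test of the interaction. That p was 0.0814 when windows with at least 3 positions entered, and no interaction was called with windows shifted by 500 bp. Usp29 begins in the same window, and the window is therefore its own as well. With reads divided by 3, to allow for neighbouring positions on the same reads, the adjusted p of the Treg comparison was 1, and no member window was called in any comparison.

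Inpp5f held the other called windows of the shared positions. At chromosome 7, 128613001 to 128614000, within the gene and beside the mixed CpG-dense window described above, levels were 60.9% in OX40L-JAG1 Treg (64 reads), 83.7% in OX40L-JAG1 Teff (92), 44.1% in PBS Treg (59) and 87.9% in PBS Teff (124) over 8 positions. Both Treg libraries lay below both Teff libraries. The difference between PBS Treg and PBS Teff was -43.8 points (interval -56.6 to -29.4; adjusted p = 1.2e-06, Fisher's exact test). In each treatment 7 of the 8 positions were lower in Treg and none was higher. It was not among the near-50% stretches, since both Teff libraries were above 80%. Over the 6 positions read in all libraries, the window at 128683001 to 128684000 had 80% in OX40L-JAG1 Treg (40 reads), 95.3% in OX40L-JAG1 Teff (43), 100% in PBS Treg (85) and 100% in PBS Teff (80). Its difference between OX40L-JAG1 Treg and PBS Treg, -20 points (adjusted p = 0.030, Fisher's exact test), sits at the threshold of 20 points. Over all its listed positions in each library the window read 93.6% of 156 reads in OX40L-JAG1 Treg and 100% of 94 reads in PBS Treg.

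**Figure D5:**
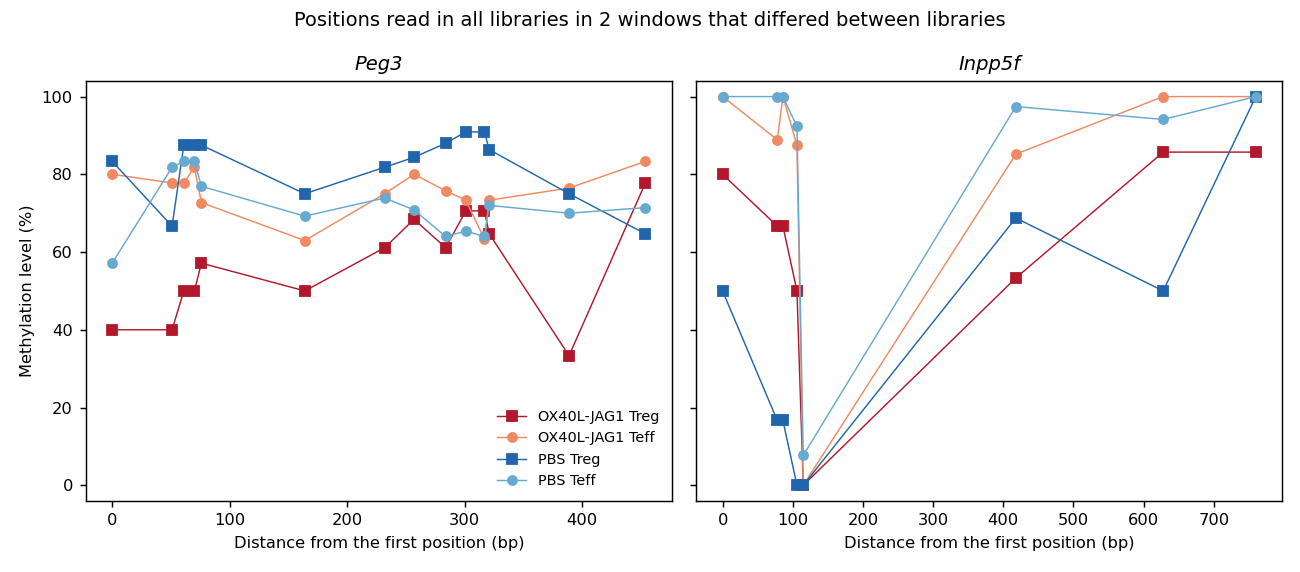
Methylation level (vertical axis, percent) of single positions read in all 4 libraries by distance from the first of them (horizontal axis, bases), in the Peg3 promoter window and the Inpp5f window at 128613001 to 128614000. OX40L-JAG1 Treg is below PBS Treg at 13 of 14 Peg3 positions, and PBS Treg is below PBS Teff at 7 of 8 Inpp5f positions.

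When only the 2 libraries compared had to read a position, more of each locus entered. Between PBS Treg and PBS Teff 2 of 310 member windows were called, where 0.232% of all such windows were. Beside the Inpp5f window above, it was 128653001 to 128654000 of the same gene, at 43.9% in PBS Treg and 96.2% in PBS Teff. Between OX40L-JAG1 Teff and PBS Teff 4 of 350 were called (0.419% of all). The Peg3 window in Usp29 (6731001 to 6732000) was at 81.9% of 127 reads in OX40L-JAG1 Teff and 51.2% of 82 reads in PBS Teff, 30.7 points higher (adjusted p = 0.00225, Fisher's exact test). It was the only member window called higher. The remaining calls were lower in OX40L-JAG1 Teff, with differences of -23.2 points in Plagl1 (13097001 to 13098000), -25.8 points in Inpp5f (128619001 to 128620000) and -20.7 points in Inpp5f (128642001 to 128643000). Between OX40L-JAG1 Treg and PBS Treg the Peg3 promoter window was the only call of 161 (0.075%), and the OX40L-JAG1 pair gave none of its member windows (0.0852%).

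Single positions gave 1 call among 1916 in 4 comparisons. Position 60122625 in the upstream part of Snrpn had 84.6% methylated reads of 13 in OX40L-JAG1 Treg, 37.5% of 16 in OX40L-JAG1 Teff, 76.2% of 21 in PBS Treg and 97.1% of 35 in PBS Teff. The difference of -59.6 points between OX40L-JAG1 Teff and PBS Teff passed Fisher's exact test (adjusted p = 0.0241), in a comparison that called 0.0285% of all positions. In the other 3 comparisons no member position was called, where 0.0169%, 0.00221% and 0.000355% of all positions were for Treg less Teff in PBS, Treg less Teff in OX40L-JAG1, and OX40L-JAG1 less PBS in Treg. Unadjusted p-values under 0.05 came to 2.04%, 1.67% and 2.19% of the member positions there, against 1.32%, 1.2% and 1.74% of all positions, and to 3.76% against 3.23% in the comparison with the call. With a median of 9 to 14 reads at a shared position, few differences could pass.

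The rest of each locus, outside the near-50% stretches, was set beside the stretches. Between OX40L-JAG1 Teff and PBS Teff the rest was lower in 9 of 10 loci, with an interval below 0 in 8 and a median of -3.30 points, about the same as the -3.58 points of the whole genome. Snrpn, the most deeply read, had 74.9% in OX40L-JAG1 Teff and 79.8% in PBS Teff in its rest, -4.95 points with an interval from -5.68 to -4.21. H19 was the exception at 1.59 points. The stretches gave 4 lower and 6 higher loci in this comparison, but PBS Teff chose them at 35 to 65%, so their differences from PBS Teff lean on that choice.

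Between OX40L-JAG1 Treg and PBS Treg, which the choice did not use, the rest was lower in 8 of 10 loci with a median of -1.89 points, beside -2.74 for the whole genome, and an interval below 0 in 5. These were Peg3 (-8.15 points), Snrpn (-3.54), Peg10 (-5.08), Impact (-2.34) and H19 (-10.01). The stretches could be compared in 8 loci, 5 lower and 3 higher, with a median of -0.62 points. Only Impact had an interval below 0, at -19.4 points (-35.2 to -1.85) over 10 positions. Its main stretch gave 5 of them, at -43.9 points (-62.5 to -17.8). The mixed window at 12982001 to 12983000 gave 5, at 5.44 points (-16.5 to 26.6). At Snrpn the stretches read 50.5% in OX40L-JAG1 Treg and 51.4% in PBS Treg, -0.93 points with an interval from -3.87 to 2.02. None of these positions lies in the promoter window with the imprinting centre. The window at 60243001 gave 707 and 750 of the reads. Single Snrpn stretches with at least 5 shared positions ran from -18.2 points (-38.0 to 3.18) at 60125001 to 11.2 (4.89 to 17.4) at 60315001. The intervals of most other stretches span more than 20 points, so a loss of the size seen in the rest could not be detected in them, and whether stretch and rest differ was not tested.

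Treg and Teff differed little in the rest of most loci. Inpp5f and H19 had Treg lower in both pairs with intervals below 0. For Treg less Teff, Inpp5f had -2.63 points in the OX40L-JAG1 pair and -6.45 in the PBS pair, and H19 had -12.6 and -6.24 points. The H19 values come from 15 positions in the OX40L-JAG1 pair and 53 in the PBS pair. The H19 rest includes the window at 142578001 to 142579000, listed in the PBS libraries only. It read 53.4% of 116 reads in PBS Treg and 69.5% of 128 in PBS Teff. PBS Teff alone set the stretches, so this window counts as rest. Kcnq1ot1 had an interval below 0 in the PBS pair alone, at -1.39 points. Treg was higher with an interval above 0 in the OX40L-JAG1 pair at Mest (5.85 points, 1.65 to 9.94), Plagl1 (2.39) and Snrpn (1.07), and at no locus in the PBS pair. In the stretches, Igf2r had a difference of -21.2 points (-34.5 to -6.66) in the OX40L-JAG1 pair, over 14 positions, and of -21.7 points (-34.8 to -7.29) in the PBS pair, over 15. These positions come from several of its 7 stretches, and PBS Teff had chosen them. In the OX40L-JAG1 pair none lay in the window near the Airn start or in that around the Igf2r start. The PBS pair had 6 positions in the window near the Airn start. They stood at 48.8% in PBS Treg and 65.6% in PBS Teff, with an interval from -37.0 to 5.89 points. Plagl1 differed by 2.32 and -16.2 points and Impact by -15.5 and 12.02 points in the OX40L-JAG1 and the PBS pair. The pairs read unlike positions, so a change of direction at the same place is not shown. In the Plagl1 window at 13091001 to 13092000 the OX40L-JAG1 pair shared 2 positions. The PBS pair shared 10 there, with a difference of -28.4 points (-44.2 to -10.2). The main Impact stretch had 4 shared positions in the OX40L-JAG1 pair. In the PBS pair it had 9, at 24.7 points (10.4 to 36.8).

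Under the stricter view, with positions read in all libraries, 10 of the 115 member windows had a mean of the 4 levels at 35 to 65% (8.7%), against 5.81% of all windows. Snrpn held 9 of them, and the only other was the Kcnq1ot1 window at 143295001 to 143296000. It read 57.8% in OX40L-JAG1 Treg, 59.2% in OX40L-JAG1 Teff, 59.5% in PBS Treg and 54.7% in PBS Teff. Without Snrpn the share was 1.79% of 56 windows. Demanding reads in every library thus left out most of the CpG-dense stretches described above. None of the 10 was called in any comparison. Their median difference was 2.09 points for Treg less Teff in the OX40L-JAG1 pair and 5.18 in the PBS pair, beside 0.75 and -0.000656 over all windows at these levels. Both turned negative with windows shifted by 500 bp, at -2.19 and -2.01 points, and at 10 or more reads per position, where a single window was left, at -1.77 and -1.81. For OX40L-JAG1 less PBS the medians were -1.46 points in Teff and -4.30 in Treg, beside -3.21 and -2.46 over all such windows.

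Of 65 other imprinted genes, 64 were found and 61 had a tested window. Of their windows read in PBS Teff 6.89% stood at 35 to 65%, close to the 6.76% of the whole table. By the mean of 4 libraries it was 6.93% of 678 windows, against 5.81%, in 30 of the genes, led by Zdbf2 and Gnas with 6 each and Trappc9 with 3. Of the 678 windows, 1 was called in the OX40L-JAG1 pair (0.147%, against 0.114% of all windows) and 4 in the PBS pair (0.59%, against 0.279%). For OX40L-JAG1 less PBS it was 7 in Teff (1.03%, against 0.559%) and 2 in Treg (0.295%, against 0.101%). These are a few windows each, and the list was not tested against the genome. Gnas, the G protein subunit with its own imprinted cluster, had a window at 34.3% in OX40L-JAG1 Treg, 53.4% in OX40L-JAG1 Teff, 27.8% in PBS Treg and 69.4% in PBS Teff, -41.6 points in the PBS pair. The PBS pair also called Herc3 (21.8 points), Slc22a3 (-29.3) and Trappc9 (25.7). Phactr2 was called in a window at 34.6% in OX40L-JAG1 Treg, 90.5% in OX40L-JAG1 Teff, 86.1% in PBS Treg and 77.5% in PBS Teff, a difference of -55.9 points between OX40L-JAG1 Treg and OX40L-JAG1 Teff and of -51.5 points between OX40L-JAG1 Treg and PBS Treg. Usp29 was the other gene called in that comparison, by the Peg3 promoter window. In Teff the calls for OX40L-JAG1 less PBS were Slc22a3 (-31.8 points), Trappc9 (26.1), another Phactr2 window (-32.1), Htr2a (-21.8), Zdbf2 (-21.8), Dcn (-25.2) and Pon2 (-32.8). Among 17 regulators of imprints, such as Zfp57 and Trim28, only Dnmt1, the maintenance methyltransferase, held a call. It was 1 of 172 regulator windows in the PBS pair (0.581%, against 0.279% of all windows), and no other comparison called any. Over 5 positions PBS Treg read 76.7% of 30 reads and PBS Teff 24.2% of 33, a difference of 52.4 points. OX40L-JAG1 Treg read 37.1% of 35 reads there and OX40L-JAG1 Teff 14.3% of 35, and that pair was not called.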

How the data were processed

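Methylation was read in 4 bisulfite libraries, 1 per group. Per the submitters' processing notes the authors used Trimmomatic and Bismark with mm10 (versions and handling of duplicates: not given in the sources used here). Per the file headers, the deposited table gives the count of reads and the count of methylated reads at each cytosine, strands on separate rows, and a level that runs as a fraction from 0 to 1. The fraction equals methylated over total reads and was recomputed. Positions under 5 reads are listed at 0, so a listed total is not the depth. NOD differs from the reference strain, and a C to T variant cannot be told from an unmethylated cytosine.

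Listed reads numbered 103584075 in OX40L-JAG1 Treg, 159291553 in OX40L-JAG1 Teff, 131555634 in PBS Treg and 208402911 in PBS Teff. Reads were summed in fixed 1-kb windows with at least 5 positions. Libraries were compared with Fisher's exact test and Benjamini-Hochberg adjustment over all windows or positions, and with a Wald interaction test that added 0.5 to each cell (Python 3.11.15, scipy 1.17.1). Levels have Wilson and differences Newcombe intervals. The scripts were tested on simulated data.

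All members, every called member window, called windows of other imprinted genes and called regulators are named. Members and lists were chosen with earlier results of these data known, and the windows chosen on PBS Teff were added after seeing the data. Gene bounds, starts and promoters come from RefSeq tables of GRCm38.p6, and other reference sequence was not used here. Alternatives varied the read minimum, positions per window, window placement, strand merging, bands and read depth.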

Additional observations from a re-analysis of the deposited data

Results flagged for a closer look

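In the Peg3 promoter window (chromosome 7, 6730001 to 6731000) the difference between OX40L-JAG1 and PBS was not the same in Treg and Teff. The difference in Treg less that in Teff was -26.2 points, with an adjusted p of 0.0437 by the Wald test of the interaction over all windows. The test compares 4 single libraries. OX40L-JAG1 Treg held 170 reads there, OX40L-JAG1 Teff 324, PBS Treg 253 and PBS Teff 250, and neighbouring positions share reads.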

How the results depend on the processing

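No paired analysis was possible because each group holds a single library, and for the same reason no library could be left out. Of the member windows called with positions read in all libraries, the PBS pair had 1, and 0 at 10 or more reads per position or with reads divided by 3, which allows for neighbouring positions on the same reads. It had 2 with positions read in the 2 libraries compared. The OX40L-JAG1 pair had 0, and 1 with the strands of a CpG summed. OX40L-JAG1 less PBS in Teff had 0, but 1 with shifted windows or summed strands, 3 with at least 3 positions or a 10-point threshold, and 4 with positions read in the 2 libraries. In Treg it had 2, but 0 with reads divided by 3 and 1 at 10 or more reads, at least 3 positions, shifted windows, summed strands, differences centred on the median, or positions read in the 2 libraries. The Peg3 window kept its Treg call under 6 of 7 of these settings that retained it, all but the division by 3, and the Inpp5f window at 128683001 kept it only with the 10-point threshold. The interaction had 1, and 0 at 3 positions, in shifted windows or with reads divided by 3. At 10 or more reads 2 positions were called, in place of 1. Windows at 35 to 65% by the mean of 4 libraries numbered 10, but 6 with limits of 40 and 60%, 28 with at least 3 positions, and 1 at 10 or more reads or without Snrpn. With that 1 window the median differences were -1.77 points for Treg less Teff in the OX40L-JAG1 pair, -1.81 in the PBS pair, and 1.20 for OX40L-JAG1 less PBS in Treg. Shifted windows gave -2.19 and -2.01 for the pairs. On PBS Teff, 56 windows became 33 with at least 10 positions and 12 at 10 or more reads. The 46.9% of CpG-dense windows became 20.9% from 20 listed cytosines and 70% from 40, beside 7.17% and 6.49% over the autosomes. The cause of these shifts was not tested. Under the other alternatives, 57 summary values stayed within 1.5 times or within their interval of the value reported. Listed positions hold a median of 6 to 7 reads, which limits every comparison of a single stretch.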
